A study of Saccharomyces cerevisiae and Neurospora crassa and Schizosaccharomyces pombe with 13 samples.

Results

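The histone genes of the filamentous fungus Neurospora crassa were described from the gene annotation deposited with a study of nucleosome footprints. The members are 8 of the 9730 genes in that annotation, chosen by their gene identifiers, which were paired with histone names when the set was defined: hH3 (NCU01635), hH4-1 (NCU01634), hH4-2 (NCU00212), hH2A (NCU02437), hH2B (NCU02435), hH2Az (NCU05347), CenH3 (NCU00145) and hH1 (NCU06863). The annotation itself gives identifiers and no names. Positions are those of the NC12 annotation of strain OR74A, counted from 1, and its 7 sequences are called by the numbers that end their names. The study made 13 MNase-seq libraries, in which micrococcal nuclease removes the DNA between nucleosomes, and 2 of them came from germinated conidia (asexual spores) of wild-type N. crassa, grown for 3.5 h and prepared with the rapid protocol. The other groups were isw2 mutants and wild-type W303 cells of the budding yeast Saccharomyces cerevisiae, 10 libraries in all, from liquid culture or agar patches, and 1 library of wild-type fission yeast, Schizosaccharomyces pombe. The annotation belongs to no library and carries no read counts, and footprints over the histone genes were not analysed here. An annotation has no replicates, so the values below carry no error, and no test was made. Each is set beside the same measure over all annotated genes.

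Histones are the proteins that package DNA into nucleosomes, the particles whose footprints MNase-seq maps. H2A, H2B, H3 and H4 form the core around which DNA is wrapped, and the linker histone H1 binds the DNA between cores. H2A.Z is a variant of H2A that is often found in nucleosomes beside gene starts, and CenH3 takes the place of H3 at centromeres.

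The coding lengths were those of short proteins and could be set against the histones of the yeasts. The coding region of hH3 had 136 codons without the stop codon, as did HHT1 and HHT2 of S. cerevisiae and hht1, hht2 and hht3 of S. pombe. Both hH4-1 and hH4-2 had 103 codons, the same as HHF1 and HHF2 and as hhf1, hhf2 and hhf3. The other families differed in length. In N. crassa hH2A had 134 codons, against 132 in HTA1, HTA2 and hta1 and 131 in hta2. The hH2B gene had 137 codons, against 131 in HTB1 and HTB2 and 126 in htb1. The variant hH2Az had 143 codons, against 134 in HTZ1 and 139 in pht1. CenH3 had 155 codons, against 229 in CSE4 and 120 in cnp1. The lengths go against none of the names of the H3 and H4 genes, and length alone cannot check the others.

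The coding regions of the H3 and H4 genes were split by 1 intron in hH3 and by 2 in each H4 gene. The hH3 gene occupies positions 2874241 to 2875647 of sequence 2, on the minus strand, and has 2 exons. Its intron of 67 bp falls after 213 coding bases, between codons. The hH4-1 gene occupies positions 2877350 to 2878740 of sequence 2 (plus strand), and hH4-2 positions 3024058 to 3025897 of sequence 3 (minus strand). Both have 3 exons, and their coding regions are cut at the same points, after 10 and after 148 coding bases, into segments of 10, 138 and 161 bp. Of the 9730 genes, these 2 are the ones whose coding region is divided into those lengths in that order.

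The H4 genes differed in the lengths of introns and UTRs around those shared cut points. The first intron measured 69 bp in hH4-1 and 316 bp in hH4-2, which is longer than 95.4% of introns within coding spans. The second measured 68 bp in hH4-1 and 65 bp in hH4-2. The 5' UTR, the transcribed stretch before the coding region, was 119 bp in hH4-1 and 661 bp in hH4-2, longer than 13.6% and 82.7% of annotated 5' UTRs in that order. The 3' UTR ran the other way, 823 bp in hH4-1 and 486 bp in hH4-2. A first coding segment of 10 bp or less, 3 codons and a base, occurred in 225 of the 7564 genes with an intron in the coding span (2.97%), against a median first segment of 196 bp.

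The genes of H2A and H2B lie on sequence 7 and hold more introns than hH3. The hH2A gene, on the minus strand at 2487192 to 2488439, has 3 exons, with introns of 122 and 64 bp after 56 and 349 coding bases. With 1248 bp it had the shortest span of the 8 genes. The hH2B gene, on the plus strand at 2490608 to 2492335, has 4 exons, the most among the core histone genes. Its introns of 141, 55 and 68 bp follow 163, 235 and 323 coding bases. The intron of 55 bp is among the shorter ones of the annotation, with 6.68% of introns within coding spans below it. The 3' UTR was 431 bp in hH2A and 837 bp in hH2B, and the 5' UTRs were of like length, 226 and 213 bp.

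The variant genes differed from each other in extent. The CenH3 gene occupies positions 2783014 to 2784705 of sequence 3 (minus strand) and has 3 exons, with introns of 145 and 83 bp after 121 and 246 coding bases. Counted in coding bases from the start codon, neither cut point is that of hH3, but the proteins were not aligned. The 5' UTR of CenH3 measured 509 bp and its 3' UTR 487 bp, both within the range of the core histone genes. The hH2Az gene occupies positions 1387651 to 1392823 of sequence 2 (minus strand) and spans 5173 bp, longer than 95.8% of all genes, for a coding length of 429 bp. Its first intron of 491 bp is longer than 98.4% of introns within coding spans. Its 5' UTR of 1119 bp exceeded 95.8% of annotated 5' UTRs, and its 3' UTR of 2677 bp exceeded 99.9% of annotated 3' UTRs. The coding region made up 10.15% of the exonic bases, a share that 0.0719% of all genes fall below.

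The hH2Az gene has 3 annotated transcripts, which differ after the stop codon and not in the protein. All 3 begin at the same base and have the same coding region and 5 exons. Each has 2 introns in the 3' UTR. The nearer measured 60 bp in transcripts T0 and T1 and 64 bp in T2, and the farther 285 bp in T0 and 279 bp in T1 and T2. The 3' UTRs were 2677, 2490 and 2486 bp long in T0, T1 and T2.

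The linker histone gene hH1, at positions 546038 to 548166 of sequence 7 (minus strand), has 2 transcripts that differ at both ends and in the protein they encode. Transcript T0 has 5 exons and 236 codons, and T1 has 4 exons and 189 codons. For comparison, HHO1, the H1 gene of S. cerevisiae, has 258 codons. Of the codons, 186 are shared in the same frame, 50 belong to T0 alone and 3 to T1 alone. The start codon of T1 lies 375 bp downstream of that of T0, within an intron of T0, and the first intron of 54 bp, which interrupts the coding region in T0, falls in the 5' UTR of T1. The 5' UTR was 195 bp in T0 and 443 bp in T1, and the 3' UTR 494 bp in T0 and 757 bp in T1. Which transcript is made in germinated conidia was not examined.

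**Figure D1:**
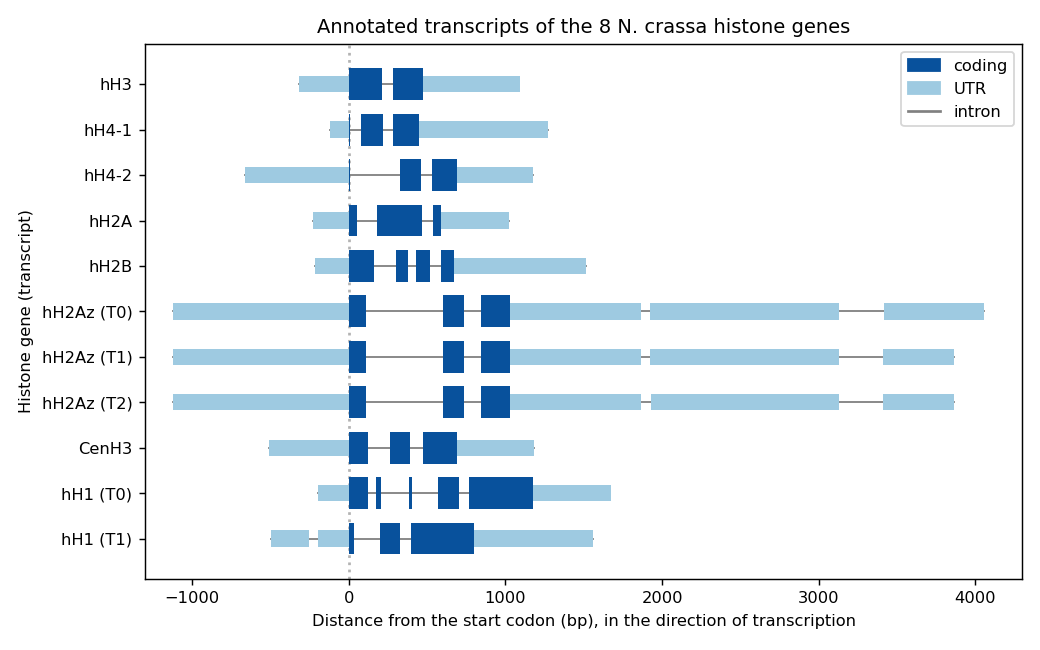
Exons and introns of every annotated transcript of the 8 genes, aligned at the start codon; the x axis is distance in bp in the direction of transcription, tall dark boxes are coding, low light boxes UTRs and lines introns. The 3 transcripts of hH2Az share a coding region and reach far beyond it, with a 3' UTR of 2677 bp in T0, while both H4 genes open with a coding segment of 10 bp.

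As a set, the 8 genes combined short coding regions with 3' UTRs longer than the median of the annotation, while their 5' UTRs lay on both sides of it. The following uses the transcript of each gene with most exonic bases, T0 for hH2Az and T1 for hH1. The median coding length was 409.5 bp in histone genes (309 to 567 bp), against 1260 bp over all genes. The median 3' UTR was 685 bp in histone genes (431 to 2677 bp), against 350 bp over the 7789 genes that have one. Every histone gene lay above that 350 bp. The median 5' UTR was 379.5 bp in histone genes (119 to 1119 bp), against 320 bp over the 7657 genes that have one.

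The 3' UTR was longer than the coding region in 8 of 8 histone genes, against 9.23% of all genes, and the 5' UTR was longer than it in 3 of 8 (hH4-2, hH2Az and CenH3), against 4.55%. With the transcript of longest coding region, T0 of hH1 in place of T1, the first count is 7 of 8. The sum of the UTRs was longer than the coding region in 8 of 8, or in 7 of 8 with T0 of hH1, against 19.7%. Genes with short coding regions reached these ratios more often. Among the 1657 genes with a coding length of at most 567 bp, 34% had such a 3' UTR. Such a 5' UTR was found in 15.6% and such a sum in 51.2%. The limit is the longest histone coding region in the transcripts used, and T0 of hH1 has 708 bp. These shares, like those over all genes, count genes without an annotated UTR as lacking it, which lowers them. Of the short genes 1049 have a 3' UTR, 564 of them longer than the coding region, against 898 of 7789 over all genes. The median 3' UTR of those 1049 was 392 bp. The coding share of the exonic bases had a median of 29.3% in histone genes (10.15 to 37.85%), against 48.6% in those short genes and 71.1% over all genes. Both backgrounds include genes without UTRs. Both UTRs were annotated in 8 of 8 histone genes, against 75.7% of all genes and 59.4% of the short ones.

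Introns were present in every histone gene. An intron lay within the coding span of 8 of 8, against 77.7% of all genes, and 2 or more lay there in 7 of 8, against 43.1%; hH3 is the exception with 1. Among the short genes 76.2% had a coding intron and 40.7% had 2 or more. An intron in the 5' UTR occurred in 1 of 8 (hH1), against 10.4% of all genes, and an intron in the 3' UTR in 1 of 8 (hH2Az), against 2.86%. The intron counted for hH1 is that of T1, and in T0 it lies in the coding region. Several transcripts were annotated for 2 of 8 (hH2Az and hH1), against 9.23%. Introns of the core histone genes, hH2A and hH2B included, measured 55 to 316 bp.

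**Figure D2:**
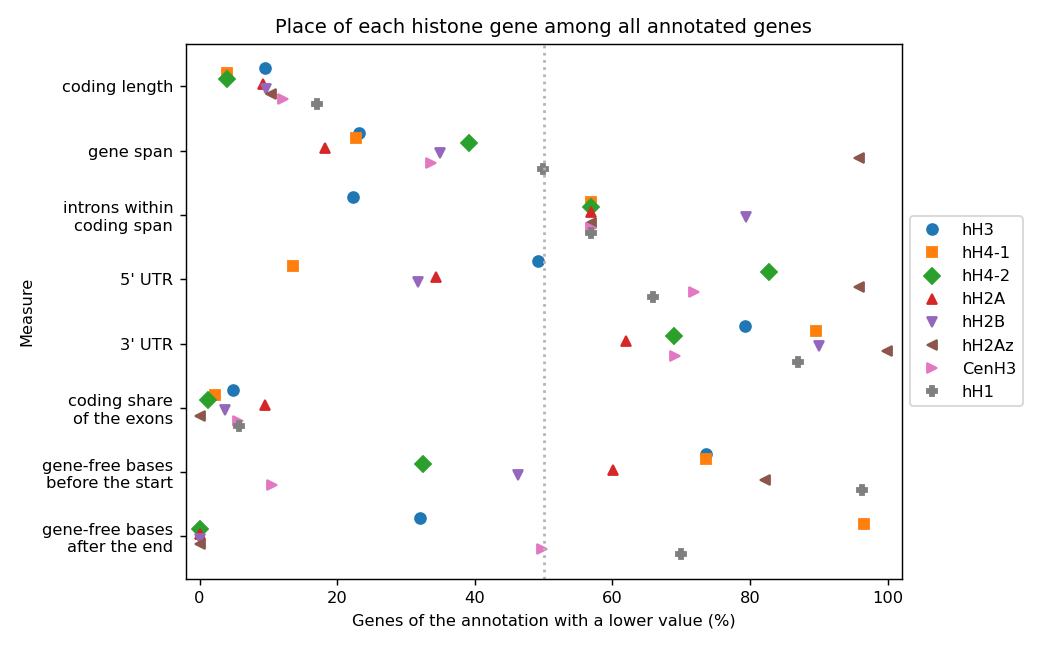
For 8 measures (y axis), the percentage of annotated genes with a lower value than each histone gene (x axis); UTR lengths are ranked among genes that have that UTR, and the dotted line marks 50%. Coding length and coding share of the exons lie at the low end for all 8 genes and 3' UTR length above the middle, while the gene-free bases before the start scatter from 10.6% for CenH3 to 96.2% for hH1.

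The hH3 and hH4-1 genes form a head-to-head pair. They are direct neighbours on sequence 2, hH3 on the minus and hH4-1 on the plus strand, so that their starts face each other across 1702 bp, from 2875648 to 2877349. Of the 2682 divergent pairs of the annotation, 73.6% have a smaller gap, and the median is 761 bp. The gap between the coding regions, which does not rest on UTR annotation, was 2137 bp, larger than in 68.1% of 2686 divergent pairs. The whole locus from end to end covers 4500 bp.

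The hH2A and hH2B genes also lie head to head, but another gene is annotated between them. The space between their spans runs from 2488440 to 2490607 on sequence 7 and measures 2168 bp, with 2607 bp between the coding regions. Within it lies NCU02436, on the minus strand at 2489515 to 2489916. It has 2 exons around an intron of 126 bp, a coding length of 273 bp (91 codons), shorter than in all but 2.25% of genes, and neither UTR, as do 16.9% of genes. By the annotation the start of hH2A is therefore preceded by a tandem neighbour at 1075 bp, and that of hH2B by a divergent neighbour at 691 bp. Without NCU02436, the gap of 2168 bp would exceed 80.3% of divergent gaps and that between coding regions 76.4%. Whether NCU02436 is transcribed was not examined.

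**Figure D3:**
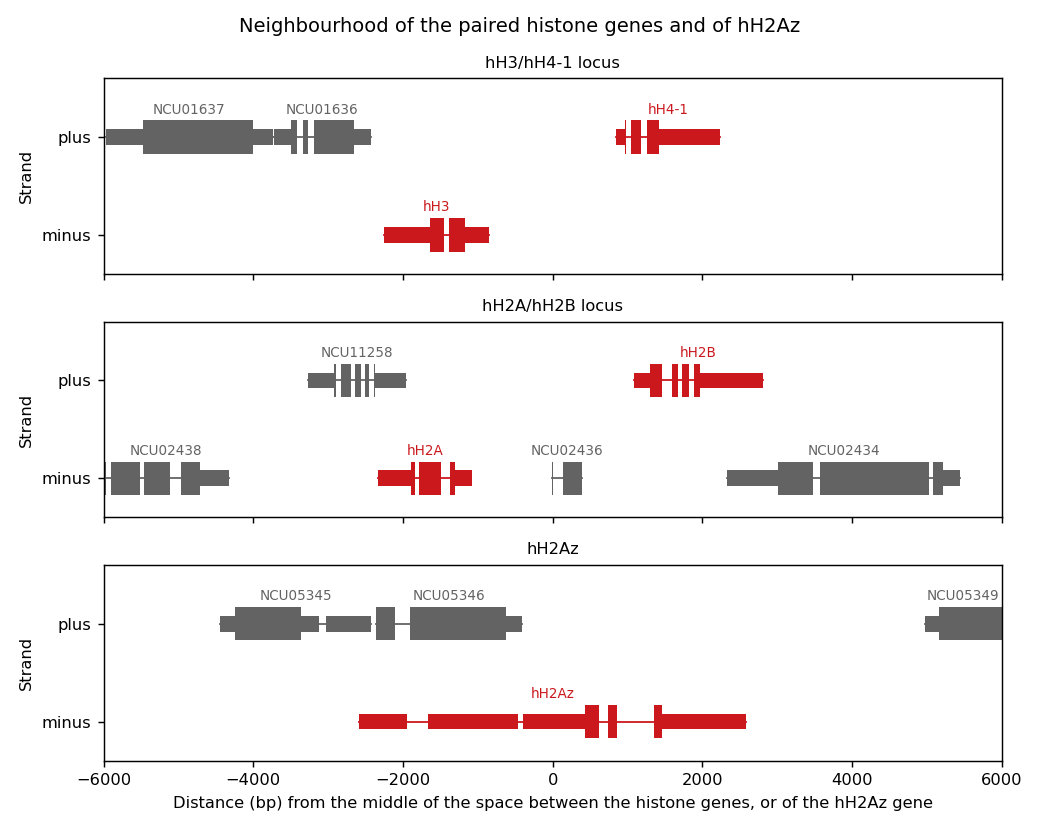
Annotated genes around the hH3/hH4-1 locus, the hH2A/hH2B locus and hH2Az, plus strand above minus strand, with the histone genes in red; tall boxes are coding, low boxes UTRs and the x axis is distance in bp. The space of 1702 bp between hH3 and hH4-1 is free of genes, that of 2168 bp between hH2A and hH2B holds NCU02436, and NCU05346 lies opposite the 3' UTR of hH2Az.

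The remaining histone genes stand alone. Before the start of hH4-2, the gene NCU00213 lies on the same strand at 421 bp. CenH3 shares a divergent gap of 173 bp with NCU00146, smaller than all but 10.7% of divergent gaps, and the coding regions of that pair lie 1220 bp apart. The start of hH2Az faces NCU05349 across 2388 bp. The start of hH1 has the most room, 7356 bp to NCU06864 on the same strand. A start with 1000 bp free of genes ahead of it was found for 5 of 8 (hH3, hH4-1, hH2A, hH2Az and hH1), against 42.4% of all genes. Of these, hH3 and hH4-1 share the same gap.

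The ends of the histone genes were often crowded. Gene-free bases after the end had a median of 84 bp in histone genes (0 to 6005 bp), against 477 bp over all genes. The nearest gene beyond the 3' end converges on the histone gene in 7 of 8 cases. The same share over all genes was not counted. The annotation has 2680 convergent and 4361 tandem pairs consecutive by start. A convergent pair holds the ends of both its genes and a tandem pair that of a single gene. The convergent share of these pairs is therefore lower than that of gene ends. In 4 of the 7 the spans overlap, against 36.0% of all such convergent pairs. In order of start, the gene after the end of CenH3 is instead NCU00143, on the same strand at 4445 bp. The hH4-2 gene overlaps NCU11174 by 167 bp, hH2A overlaps NCU11258 by 369 bp and hH2B overlaps NCU02434 by 483 bp. The hH2Az gene overlaps NCU05345 by 166 bp, and this overlap rests on transcript T0 alone. Transcripts T1 and T2 stop at 1387844, short of NCU05345, whose last base is 1387816. In these 4 pairs the coding regions stay 463 bp (hH2A) to 3793 bp (hH2Az) apart, so the overlaps lie in UTRs. The hH3 gene and NCU01636 are separated by 168 bp, close to the convergent median of 172 bp. In contrast, hH4-1 has 6005 bp between its end and NCU16562, more than in 97.5% of convergent pairs. Counting overlaps of any kind, 4 of 8 spans overlapped another gene, against 22.8% of all genes. The end of CenH3 faces that of NCU00144 across 473 bp. The exception is hH1, which is followed by NCU06862 on the same strand at 1084 bp.

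The long 3' UTR of hH2Az holds a whole gene on the other strand. NCU05346, on the plus strand at 1387878 to 1389833, has 512 codons and lies within the hH2Az span over its full 1956 bp. A gene on the other strand is enclosed in this way by 0.719% of all gene spans. The enclosed gene has 2 exons around an intron of 204 bp, and 1458 of its 1752 exonic bases and 1295 of its coding bases lie opposite exonic bases of hH2Az. No coding base of hH2Az lies opposite its exons (0 bases). It ends 839 bp from the stop codon of hH2Az.

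Histone genes were found on 3 of the 7 sequences, with 3 each on sequences 2 and 7 and 2 on sequence 3. On sequence 2, hH2Az lies 1481417 bp from hH3. Between their first bases 370 genes start, including NCU05346, which lies within the hH2Az span. On sequence 3, CenH3 lies 239352 bp from hH4-2, with 65 genes between. On sequence 7, hH1 lies 1939025 bp from hH2A, with 426 genes between.

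Each sequence has a longest interval without any annotated gene, and 3 histone genes lie close to it. On sequence 7 it measures 347790 bp and ends at 2482903. On sequence 2 it measures 211497 bp and ends at 1366018, and on sequence 3 it measures 151473 bp and ends at 965450. The hH2A gene lies 4288 bp from the edge of the interval on sequence 7, with NCU02438 and NCU11258 between, and is the 6th nearest of 1047 genes. The hH2B gene lies 7704 bp from it and is the 9th nearest. On sequence 2, hH2Az lies 21632 bp from the interval and is the 8th nearest of 1028 genes. A window of 25000 bp around the interval holds 3 of 8 histone genes, against 0.863% of all genes, or 84 genes. Of these 3, hH2A and hH2B belong to the same locus and are not separate placements. The width of that window was set with these positions known.

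The other 5 genes lie far from these intervals. The distance was 1508222 bp for hH3 and 1511331 bp for hH4-1, farther than most genes of sequence 2, of which 64.3% lie as near as hH4-1 or nearer. It was 2058607 bp for hH4-2 and 1817563 bp for CenH3 on sequence 3, where 52.7% and 47.4% of genes lie as near or nearer in that order. It was 1586947 bp for hH1, on the other side of the interval of sequence 7 from hH2A and hH2B. Centromeres of N. crassa are long and poor in genes, but whether these intervals are centromeres was not examined, and no genome sequence of the fungus was used.

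**Figure D4:**
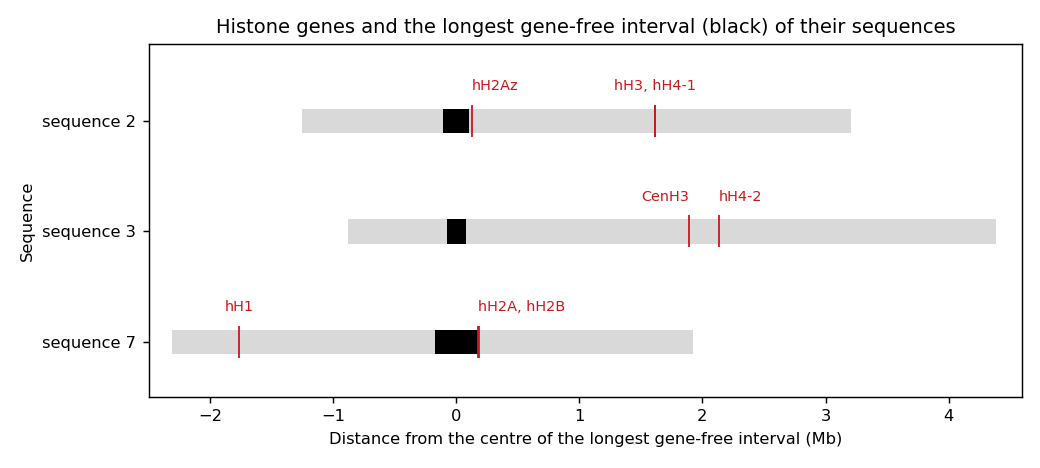
Sequences 2, 3 and 7 drawn from the first to the last annotated base (grey), placed by distance in Mb from the centre of their longest gene-free interval (black); red ticks are histone genes. The pair hH2A and hH2B touches the edge of the interval at this scale, at 4288 and 7704 bp, and hH2Az lies 21632 bp from its own, while hH3, hH4-1, hH4-2, CenH3 and hH1 lie over 1 Mb away.

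The number of genes around the histone genes varied. Within 25000 bp on each side, hH1 had 7 other genes, hH2A 8, hH2B 9, hH3 and hH4-1 10 each and CenH3 12, against a median of 14 over all genes. The hH4-2 and hH2Az genes had 16 each. Other genes covered 29.1% of these bases around hH2A, 34.9% around hH2B and 33.7% around hH1, against a median of 64.1% over all genes. Around hH4-2 the cover was 81.6%, higher than for 95.5% of genes. The windows of hH2A, hH2B and hH2Az reach into the longest gene-free interval of their sequence, whereas that of hH1 does not. Around hH2Az the cover was nevertheless 58.9%.

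Head-to-head pairs of H3 with H4 genes and of H2A with H2B genes were also found in the other fungi of the study, although hta2, the second H2A gene listed for S. pombe, has no H2B partner among the listed genes. All 4 pairs listed for S. cerevisiae and all 4 for S. pombe were divergent, with 0 genes between the members in each, whereas in N. crassa 1 of 2 loci holds a gene. Between coding regions, the N. crassa loci measured 2137 bp (hH3/hH4-1) and 2607 bp (hH2A/hH2B). In S. cerevisiae the distances were 646 bp for HHT1/HHF1, 676 bp for HHT2/HHF2, 699 bp for HTA2/HTB2 and 817 bp for HTA1/HTB1. In S. pombe they were 237 bp for hht3/hhf3, 334 bp for hht2/hhf2, 432 bp for hht1/hhf1 and 561 bp for hta1/htb1. In each of the 3 species the H2A/H2B loci were wider than the H3/H4 loci.

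The loci were also set against the other divergent pairs of each species. The median distance between divergent coding regions was 1482 bp in N. crassa, 505 bp in S. cerevisiae and 1022 bp in S. pombe. The N. crassa loci exceeded 68.1% and 76.4% of divergent pairs of their species, and the S. cerevisiae loci 62.6 to 76.2%. The 76.4% is for hH2A/hH2B with NCU02436 left out. Between coding regions, hH2B lies 904 bp from NCU02436, its divergent neighbour, against a first quartile of 917 bp. The S. pombe loci exceeded 5.78 to 23.7%, so they lie on the narrow side of their genome. Coding introns could be compared between N. crassa and S. pombe only, since those of S. cerevisiae were not read. In N. crassa 8 of 8 histone genes have a coding intron, against 77.7% of all its genes and 76.2% of its short ones. In S. pombe 0 of 11 listed histone genes have one, against 46.7% of the 5113 protein-coding genes. Each species is represented by a single annotation from a different source, and no difference between species was tested.

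**Figure D5:**
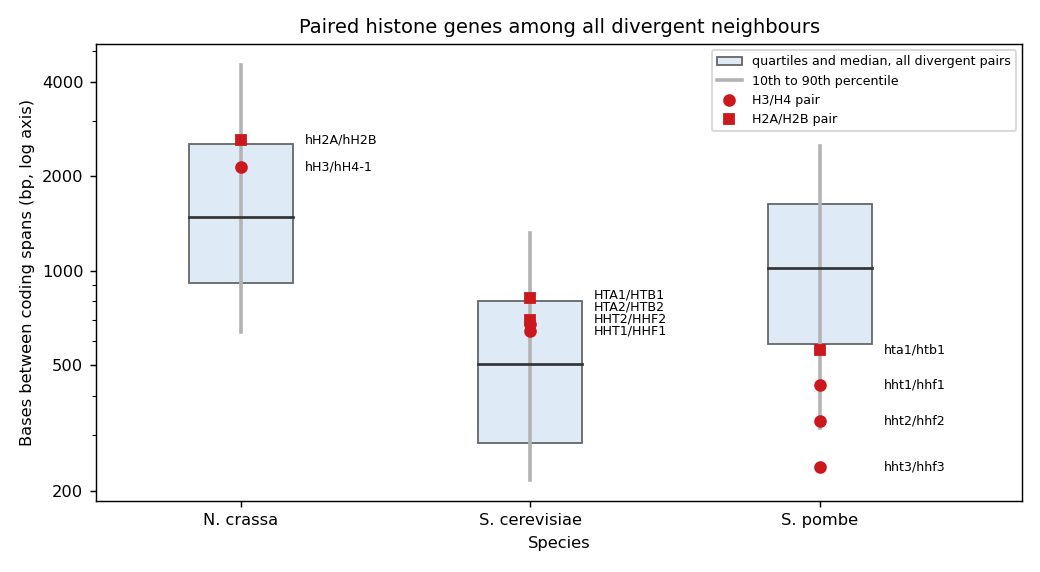
Bases between coding spans (log axis) of divergent neighbours in 3 species; boxes give the quartiles and median of all divergent pairs, grey lines the 10th to 90th percentile, and red points the histone loci (circles H3/H4, squares H2A/H2B). The N. crassa and S. cerevisiae loci lie above the median of their species, 1482 and 505 bp, and the S. pombe loci below theirs, 1022 bp; the hH2A/hH2B point leaves out the gene between.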

How the data were processed

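The file analysed is a GTF annotation of 81022 records, deposited by the authors, with first and last base counted from 1. The records come from the NC12 gene set of strain OR74A, per the file's own labels, and were edited in a way that no source used here describes. The score field is empty (0 records with a score), so there is no sequencing depth. The libraries, whose reads went through CASAVA and Bowtie2 per the submitters' processing notes, were not analysed here.

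A span ran over all transcripts of a gene. Structures used the transcript with most exonic bases, and the stop codon counted neither as coding length nor as UTR. Neighbouring pairs were consecutive genes by start, and the nearest gene beyond an end was taken by distance, leaving out enclosed genes. A percentage of lower values compares a gene with all genes that have that measure. Distances of the yeasts are between coding spans, from RefSeq R64 (S. cerevisiae, strand from the systematic name, coding regions taken as uninterrupted) and a RefSeq annotation of S. pombe whose build may differ from the ASM294v2 of the processing notes. Named genes are the members, their neighbours, genes overlapping or between them, and the listed yeast histones, plus NCU00144, NCU05349 and NCU02438, added after their positions were seen. Members and lists were chosen with earlier results of these data known. Calculations used Python 3.11.15 and NumPy 2.4.6, and figures matplotlib 3.10.9. They were tested on simulated data, where 2100 of 2100 gene structures, 2093 of 2093 gaps and 7 of 7 longest intervals were recovered.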

Additional observations from a re-analysis of the deposited data

How the results depend on the processing

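No paired analysis was possible because the annotation belongs to no library and no test was made. With coding spans in place of transcript spans, the gap of the hH3/hH4-1 locus was 2137 bp in place of 1702 bp, that of the hH2A/hH2B locus 2607 bp in place of 2168 bp, and the median span of the histone genes 685.5 bp in place of 1710 bp, since UTRs are left out by construction. The median 5' UTR was 271 bp with the shortest transcript of each gene, in place of 379.5 bp; of the 8 genes, hH1 and hH2Az have more than 1 transcript. Use of the transcript with the longest coding region could not change the gaps at either locus, since hH3, hH4-1, hH2A and hH2B have 1 transcript each. It lowered the number of genes whose 3' UTR, or sum of UTRs, exceeds the coding length to 7 in place of 8, an alternative chosen after seeing the data. The count of genes with an intron stayed at 8 of 8 with introns between coding records only. Taking any transcript could not lower that count, nor the 8 of 8 with a 5' UTR. The number with a free upstream window was 6 with 500 bp and 7 with coding spans, in place of 5. Shares over all genes at these settings are not given, and a shorter window cannot lower such a count. Distances to the longest gene-free interval changed by 71 to 2611 bp. There is no sequencing depth to limit these values; the limit is the annotation, whose transcript ends were not tested against transcript data.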
